A study of Mus musculus with 24 samples.

Results

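The expressed microRNA loci of mouse splenic cells were taken as the genes whose symbol begins with Mir and a digit, or with Mirlet, and whose mean level over the 24 libraries was above 1 RPKM (the reads on a gene divided by its length in kilobases and by the library's reads on exons in megareads, M). This rule kept 200 of the 524 microRNA loci among 21671 genes. Because the mean over all libraries chose them, their overall level is a description and not a finding. The loci just outside the rule were Mir484, Mir713 and Mir1947 with means of 0.945, 0.958 and 0.985 RPKM, and those just inside it were Mir33, Mir138-1 and Mir212 with 1.008, 1.012 and 1.02 RPKM. Of the other 324 loci, 144 were listed at 0 in every library.

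The libraries came from spleens of C57/Bl6 mice aged 8 weeks. Cells bound by magnetic beads against B220, a surface form of CD45 on B cells, were the B cells, and the cells left over, enriched in T cells, were the non-B cells. In each cell type, Trp53+/+ and Trp53-/- mice were either mock treated (unstressed) or exposed to 7 Gy of whole-body irradiation (IR) and examined 4 h later, which gave 8 groups with 4 libraries in each Trp53+/+ group and 2 in each Trp53-/- group. Red blood cells were lysed before the sort, Trp53 encodes the transcription factor p53, and the study's methods name the Trp53-/- strain as p53 KO (p53Δ), kept on the C57/Bl6 background. By those methods the libraries of a condition came from 4 Trp53+/+ and 2 Trp53-/- mice. The labels do not say whether B and non-B libraries of the same number share a mouse. In these bulk samples, fewer cells of a type and less RNA per cell cannot be told apart.

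A microRNA is made from a long primary transcript, which is either a host gene or a transcript of its own. The nuclear enzyme Drosha, with its partner Dgcr8, cuts out a hairpin, Exportin 5 carries it to the cytoplasm, Dicer trims it to a short mature RNA, and an Argonaute protein uses the seed of that RNA, near its 5′ end, to find target mRNAs. In lymphocytes, miR-155 is known for activated cells, miR-150 for mature resting cells, the miR-17 cluster for proliferation and survival, and miR-34a as a direct target of p53. The libraries were made from fragmented, ribosome-depleted total RNA, so the reads counted at a locus are those of primary or host transcripts that cross the hairpin. A level here is therefore a locus level and not the amount of a mature microRNA.

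Mature sequences from RefSeq (annotation of GRCm38.p6) were matched to 171 of the 200 loci. Those of the loci on which the results turn are printed 5′ to 3′ with the seed, bases 2 to 8, in capitals. The first set holds miR-34a, the miR-15/16 family with its shared seed, and the miRNAs of the neighbouring X-linked loci and of Mir340, whose loci changed in irradiated Trp53+/+ B cells.
mmu-miR-34a-5p: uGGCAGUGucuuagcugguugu
mmu-miR-15a-5p: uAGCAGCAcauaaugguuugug
mmu-miR-16-5p: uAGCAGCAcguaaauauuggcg
mmu-miR-15b-5p: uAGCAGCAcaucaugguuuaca
mmu-miR-374b-5p: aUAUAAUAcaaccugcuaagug
mmu-miR-421-5p: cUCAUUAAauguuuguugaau
mmu-miR-340-5p: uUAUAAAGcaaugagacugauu
The second set holds members of the miR-17 family and their cluster neighbours, in which 3 seeds recur across 3 genomic clusters, and then miR-155, miR-142a and miR-451a.
mmu-miR-17-5p: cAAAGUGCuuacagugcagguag
mmu-miR-20a-5p: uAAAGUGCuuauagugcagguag
mmu-miR-106b-5p: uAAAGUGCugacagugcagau
mmu-miR-93-5p: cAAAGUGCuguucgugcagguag
mmu-miR-18a-5p: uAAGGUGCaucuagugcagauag
mmu-miR-18b-5p: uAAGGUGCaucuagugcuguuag
mmu-miR-25-3p: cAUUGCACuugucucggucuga
mmu-miR-363-3p: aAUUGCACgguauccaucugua
mmu-miR-155-5p: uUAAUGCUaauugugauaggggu
mmu-miR-142a-3p: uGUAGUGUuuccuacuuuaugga
mmu-miR-451a: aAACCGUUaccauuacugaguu

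Few reads stood behind most of these loci. Library depth was inferred from the RPKM steps, as the depth at which the loci held whole reads. By this estimate the libraries held 4.81 to 11.07 M reads on exons (median 8.82 M). A single read on a locus of 80 bases was then worth 1.13 to 2.6 RPKM. The irradiated Trp53+/+ B cell libraries were the shallowest, at 4.81 to 7.75 M against 7.64 to 10.28 M in their unstressed controls. Since RPKM values are whole multiples of what 1 read is worth, reads could be recovered for 197 loci. At these loci all 3899 values between 1 and 49 reads lay within 0.1 of a whole read. Depth and gene length were chosen to make reads whole, so this does not check the recovery. The mean per library ran from 0.583 to 201.6 reads, with a median over loci of 4.62. It was under 1 read at 15 loci, under 5 at 103, at least 10 at 54 and at least 50 at 9, and 103 loci had no read in at least 1 library. Intervals on read ratios given here are exact 95% intervals on summed reads and cover counting error only.

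**Figure D1:**
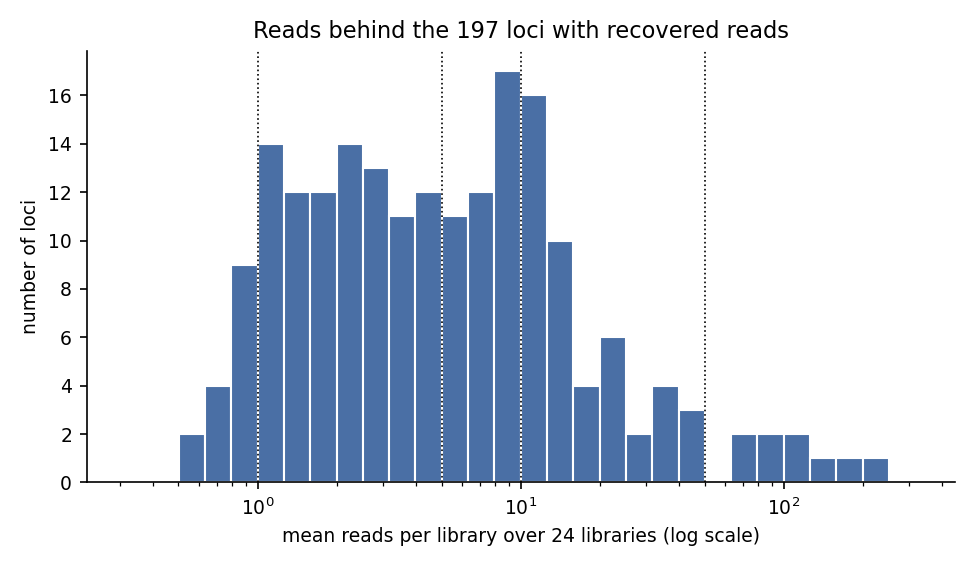
Histogram of the 197 loci with recovered reads by their mean reads per library over the 24 libraries (log scale), with dotted lines at 1, 5, 10 and 50 reads. The bulk of the loci lies between 1 and 15 reads, 103 of them below 5, and 9 lie above 50.

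The 200 loci were mostly parts of other genes. A position in mm9 was found for 193 of them. Of these, 105 lay in an intron and 27 in an exon of a gene on the same strand, 21 were antisense to another gene, and 40 lay outside other genes. No strand was stated for the counting, so reads at the 21 antisense loci and reads of the gene on the other strand cannot be told apart. For 12 loci the gene length that fitted the reads was over 200 bases, longer than a hairpin, so a longer transcript was counted under the locus name. These included Mir155, with 1254 bases, Mir22hg, the host transcript of miR-22, and Mir1941.

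The levels spanned a wide range. The median locus had a mean of 5.778 RPKM, and 68 loci exceeded 10 RPKM. Mir142, a locus of blood cells inside A430104N18Rik (chr11:87570366-87570429, + strand), was the highest at 138.517 RPKM. Mir3064 in an exon of the RNA helicase gene Ddx5 followed at 125.653 RPKM, then Mir1894 in an exon of Ppp1r10 at 93.204 RPKM. The next 7 ran from 46.228 down to 33.238 RPKM. These were Mir3068 (intron of Alkbh1), Mir7-1 (intron of Hnrnpk), Mir1955 (intron of Phf21a), Mir1190 (intron of Ccdc88c), Mir466i (antisense to Cdk13), Mir150 and Mir199a-1 (antisense to Dnm2). Mir142 was at a similar level in all 8 groups, between 111.75 and 167.94 RPKM, and passed the test in no comparison. Its change after IR in Trp53+/+ B cells was 0.16 on the log2 scale with a 95% interval from -0.01 to 0.34.

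Some facts about the whole series bear on what follows. Cdkn1a, a p53 target, rose from 0.893 to 5.871 RPKM in unstressed Trp53+/+ libraries to 69.59 to 97.829 RPKM after IR, and stayed between 0.562 and 2.63 RPKM in all Trp53-/- libraries. Trp53 itself was still listed at 21.593 to 41.833 RPKM in Trp53-/- libraries, against 35.025 to 65.817 RPKM in Trp53+/+ libraries. The sort was partial: B cell markers summed to 366.87 to 593.01 RPKM in unstressed Trp53+/+ non-B cells, against 1129.4 to 1311 RPKM in B cells. T cell markers summed to 170.8 to 183.35 RPKM in B cells, against 592.44 to 866.67 RPKM in the non-B libraries. In 4 irradiated Trp53+/+ libraries an unusual share of olfactory and vomeronasal receptor genes, which spleen is not known to use, was above 0. The shares were 36.67% and 47.29% in irradiated B cell replicates 1 and 2, and 51.32% and 35.83% in irradiated non-B replicates 3 and 4, against 5.417% to 24.65% in the other 20 libraries. Where a call on a named locus was lost without these 4 libraries, this is said beside it or beside the count it belongs to.

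IR changed the level of 46 of the 196 loci tested in Trp53+/+ B cells (the other 4 were at or below 1 RPKM in every Trp53+/+ B cell library), 21 upwards and 25 downwards (limma on log2 of RPKM + 0.5, adjusted p under 0.05 over all 13821 genes and a log2 change above 0.58 in either direction). That is 23.5% of the loci, and 24.7% of all genes tested passed the same rule, 12.5% upwards and 12.2% downwards. The median change of the loci was -0.135, or -0.149 with 2 loci that had no read in 1 group set to their bound and 2 without a fold left out, against 0.0111 over all genes. The largest rise was that of Mir34a, and the 5 largest falls were those of Mir15a, Mir374b, Mir3058, Mir340 and Mir681. Mir34a met the mean rule only through irradiated Trp53+/+ libraries, with group means of 23.529 (B) and 11.837 RPKM (non-B). Irradiated Trp53-/- groups had 0.53 (B) and 0.66 RPKM (non-B). The choice of loci thus favoured the IR and genotype differences of Mir34a. Of the 44 passing loci with recovered reads, 16 had a mean under 5 reads. Without irradiated replicates 1 and 2, 47 loci passed, and 34 of the 46 were among them.

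Mir34a, the locus of the p53-induced miR-34a, went from nearly no reads to 11 or more in every irradiated library of Trp53+/+ B cells. It lies at chr4:149442563-149442664 on the + strand, outside other genes. Unstressed Trp53+/+ B cells had 1, 0, 0 and 0 reads and irradiated ones 11, 13, 22 and 16, which corresponds to 0.953, 0, 0 and 0 RPKM against 17.443, 26.526, 29.93 and 20.218 RPKM. The groups did not overlap. The depth-corrected ratio of summed reads was 88.1 (95% interval 15.2 to 3540), and the log2 change was 5.17 ± 0.40 (SE; limma adjusted p = 5.01e-07). An exact permutation test, two-sided, gave p = 0.0286, the smallest that 4 against 4 libraries allow.

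The Mir34a signal was almost missing without p53. Trp53-/- B cells had 0 and 0 reads unstressed and 0 and 1 after IR, and Trp53-/- non-B cells had 0 and 1 in either state, so no fold is given there. The fitted difference in log2 change between genotypes was 4.35 ± 0.69 in B cells (limma adjusted p = 0.00115), a size that depends on the pseudocount because unstressed Trp53-/- B cells had no read. In Trp53+/+ non-B cells the reads went from 0, 2, 0 and 0 to 11, 8, 9 and 13, with a ratio of 23.9 (6.22 to 204) and a log2 change of 4.06 ± 0.57 (limma adjusted p = 0.000773). The genotype difference in non-B cells was 3.98 ± 0.98 with adjusted p = 0.0341 by limma, and 0.072 without irradiated replicates 3 and 4. Mir34b and Mir34c, the other loci of the family, were listed at 0 in all libraries.

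**Figure D2:**
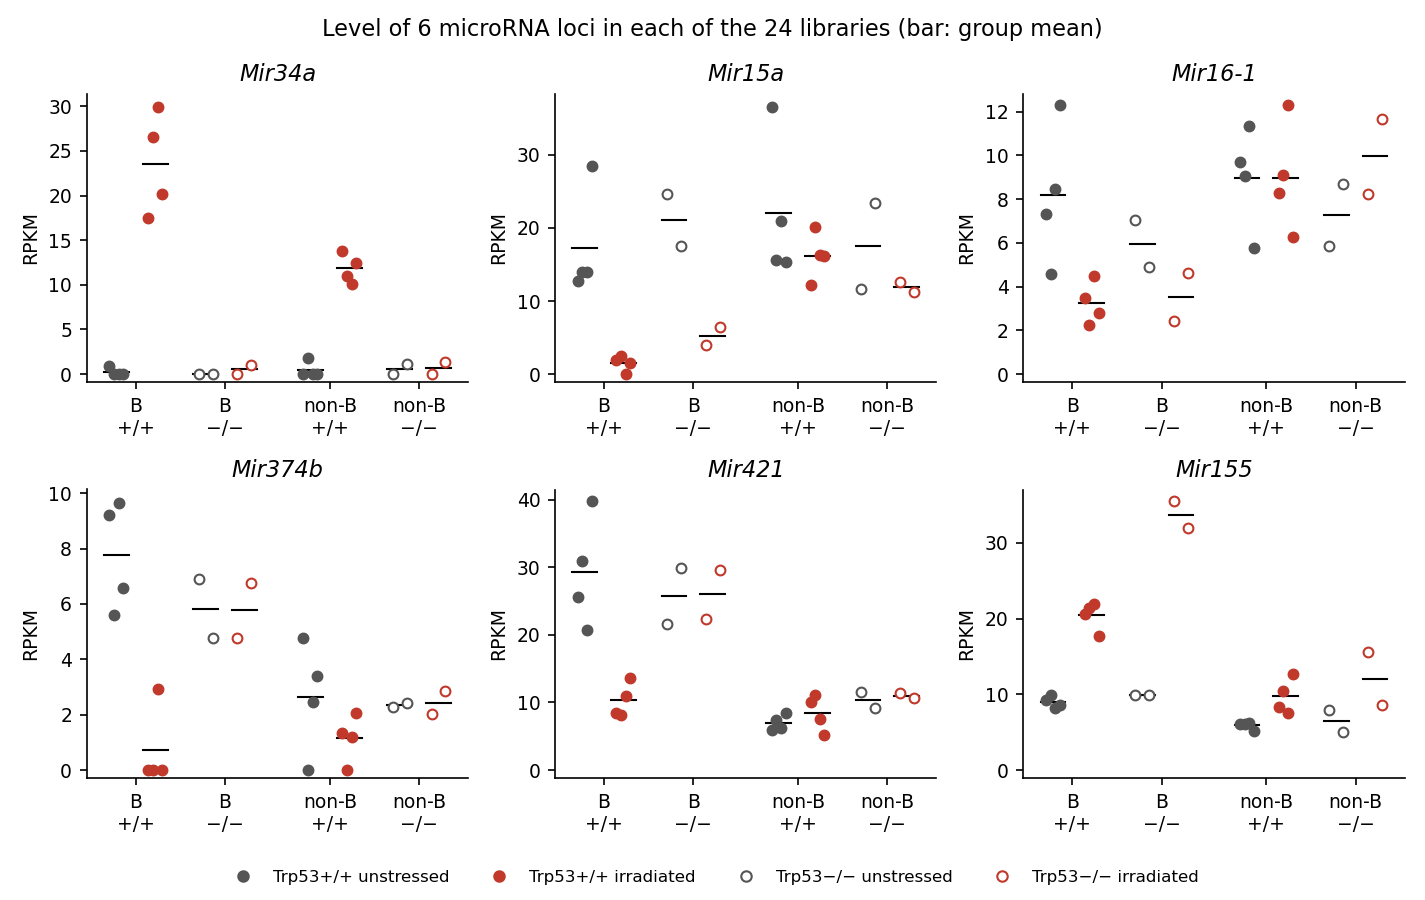
Level in RPKM (vertical axis) of Mir34a, Mir15a, Mir16-1, Mir374b, Mir421 and Mir155 in each library, by cell type and genotype (filled circles Trp53+/+, open circles Trp53-/-, grey unstressed, red irradiated, bar at the group mean). Irradiated Trp53+/+ B cells lie between 17.443 and 29.93 RPKM for Mir34a and at or below 2.478 RPKM for Mir15a, and irradiated Trp53-/- B cells reach 31.906 and 35.51 RPKM for Mir155.

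Mir15a and Mir16-1, neighbouring hairpins in an intron of the non-coding gene Dleu2, fell in irradiated B cells. The pair is known for restraining the cell cycle and the survival factor Bcl2. At Mir15a (chr14:62250875-62250933, - strand) the reads of Trp53+/+ B cells went from 11, 11, 9 and 23 to 1, 1, 0 and 1. This is a ratio of 0.079 (0.0158 to 0.243) and a log2 change of -3.36 ± 0.47 (limma adjusted p = 7.72e-05). At Mir16-1 (chr14:62250717-62250809, - strand) they went from 7, 4, 6 and 11 to 2, 1, 3 and 2, a log2 change of -1.17 ± 0.28 (limma adjusted p = 0.00419). In neither locus did the groups overlap.

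The fall of Mir15a was seen in Trp53-/- B cells too, and its host fell with it. The reads there went from 19 and 13 to 3 and 5, a ratio of 0.248 (0.0986 to 0.549) with a log2 change of -1.93 ± 0.66 (limma adjusted p = 0.0345). Dleu2 passed the test at a log2 change of -0.78 in Trp53+/+ and -0.60 in Trp53-/- B cells, smaller than those of Mir15a. In Trp53+/+ non-B cells Mir15a had 34, 14, 15 and 12 reads before and 8, 12, 12 and 14 after IR and passed no test, and its change differed from that in B cells by 2.99 ± 0.62 (limma adjusted p = 0.00209). The paralogous loci Mir15b and Mir16-2, in introns of the condensin gene Smc4, share the seed AGCAGCA. They did not pass in Trp53+/+ B cells, with log2 changes of -1.86 (limma adjusted p = 0.0513) and -0.38.

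A pair of neighbouring loci on chromosome X fell after IR in Trp53+/+ B cells. Mir421 (chrX:100768260-100768335, - strand) and Mir374b (chrX:100768399-100768493, - strand) both lie in an intron of the non-coding gene B230206F22Rik, which has no row of its own in the files. At Mir421 the reads went from 20, 22, 12 and 29 to 4, 3, 6 and 8, a ratio of 0.36 (0.212 to 0.586) with a log2 change of -1.45 ± 0.20 (limma adjusted p = 8.46e-05). At Mir374b they went from 9, 5, 7 and 6 to 0, 0, 2 and 0, a ratio of 0.105 (0.0121 to 0.419) with a log2 change of -3.32 ± 0.52 (limma adjusted p = 0.000199). Every irradiated library lay below every unstressed one at both loci.

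Without p53, the same X-linked loci of B cells stayed near their unstressed counts. Mir421 had 15 and 20 reads before and 15 and 21 after IR, a ratio of 1.02 (0.622 to 1.67). Mir374b had 6 and 4 before and 4 and 6 after, a ratio of 0.991 (0.37 to 2.65). The genotype difference in log2 change was -1.47 ± 0.35 for Mir421 (limma adjusted p = 0.0135). For Mir374b it was -3.31 ± 0.90 (limma adjusted p = 0.0244, and 0.0705 without irradiated replicates 1 and 2).

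Mir340, in an intron of the E3 ligase gene Rnf130, was a further locus with a fall in Trp53+/+ B cells and a genotype difference. Its reads went from 10, 10, 9 and 11 to 1, 1, 2 and 0 in Trp53+/+ B cells, and from 7 and 11 to 8 and 8 in Trp53-/- B cells. The log2 change in Trp53+/+ B cells was -2.73 ± 0.45 (limma adjusted p = 0.000303), and the genotype difference was -2.59 ± 0.78 (limma adjusted p = 0.0378). The host did not follow this pattern: Rnf130 passed with a log2 change of -0.74 in Trp53+/+ and -0.75 in Trp53-/- B cells. Both genotypes had host levels that fell, whereas the groups of Mir340 separated only in Trp53+/+ cells.

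Other loci with low counts fell in Trp53+/+ B cells. Mir3058 (intron of Nudt4) went from 4, 3, 5 and 10 reads to 0, 2, 0 and 0, a ratio of 0.129 (0.0147 to 0.526; limma adjusted p = 0.00292). Mir681 (intron of Cdkl1) went from 7, 4, 3 and 12 reads to 0, 1, 0 and 1, with a log2 change of -2.62 beside -2.19 for its host (limma adjusted p = 0.00154). Mir194-1, antisense to Iars2 and encoding a p53-linked miRNA, went from 12, 18, 11 and 17 reads to 2, 1, 5 and 10. The low values of Mir194-1 sat mainly in irradiated replicates 1 and 2: its log2 change was -1.56 (limma adjusted p = 0.00742) with them and -0.69 (adjusted p = 0.0591 in limma) without them. Mir1955, Mir128-1, Mir106b, Mir30c-1, Mir451a, Mir301, Mirlet7b and the rising Mir1948 also lost their calls without these replicates.

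Among the rising loci, Mir701 had the lowest adjusted p. Mir701 (chr5:111433163-111433271, + strand, intron of Ttc28) went from 8, 7, 7 and 9 reads to 15, 11, 17 and 19 in Trp53+/+ B cells, a ratio of 2.84 (1.82 to 4.53) and a log2 change of 1.44 ± 0.09 (limma adjusted p = 9.82e-08). Without p53, B cells had 3 and 3 reads before and 4 and 4 after IR, and the genotype difference was 1.09 ± 0.16 (limma adjusted p = 0.000655). Both SEs come from the spread among libraries and are smaller than the counting error of so few reads. With 6 and 8 summed Trp53-/- reads, the genotype difference of Mir701 is loosely bounded. Mir150, which is known to restrain the transcription factor Myb in resting lymphocytes, lies at chr7:52377127-52377191 on the + strand. Its level went from 25.427, 19.701, 26.198 and 24.039 to 37.325, 67.241, 40.563 and 47.589 RPKM (log2 change 0.97 ± 0.19, limma adjusted p = 0.00105). Smaller counts stood behind Mir101b (intron of Rcl1) and Mir3108 (intron of Zfhx3), which went from 4 to 14 and from 1 to 5 summed reads.

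In Trp53-/- B cells IR changed 29 of the 196 loci, 15 upwards and 14 downwards, which is 14.8% of the loci beside 24.3% of all genes tested, 13.1% upwards and 11.2% downwards. The median change of the loci was -0.152, or -0.177 with 1 locus set to its bound and 7 without a fold left out, against 0.0176 over all genes. The rises were led by loci of the Mir17 family clusters and by Mir155, and the falls included Mir23a and Mir15a. Of the loci that passed in Trp53+/+ B cells, 14 also passed here, all in the same direction, which is 30.4% of the 46 and 48.3% of the 29. They included Mir1190, Mir155, Mir15a, Mir17hg, Mir1938, Mir1949, Mir1955 and Mir363.

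**Figure D3:**
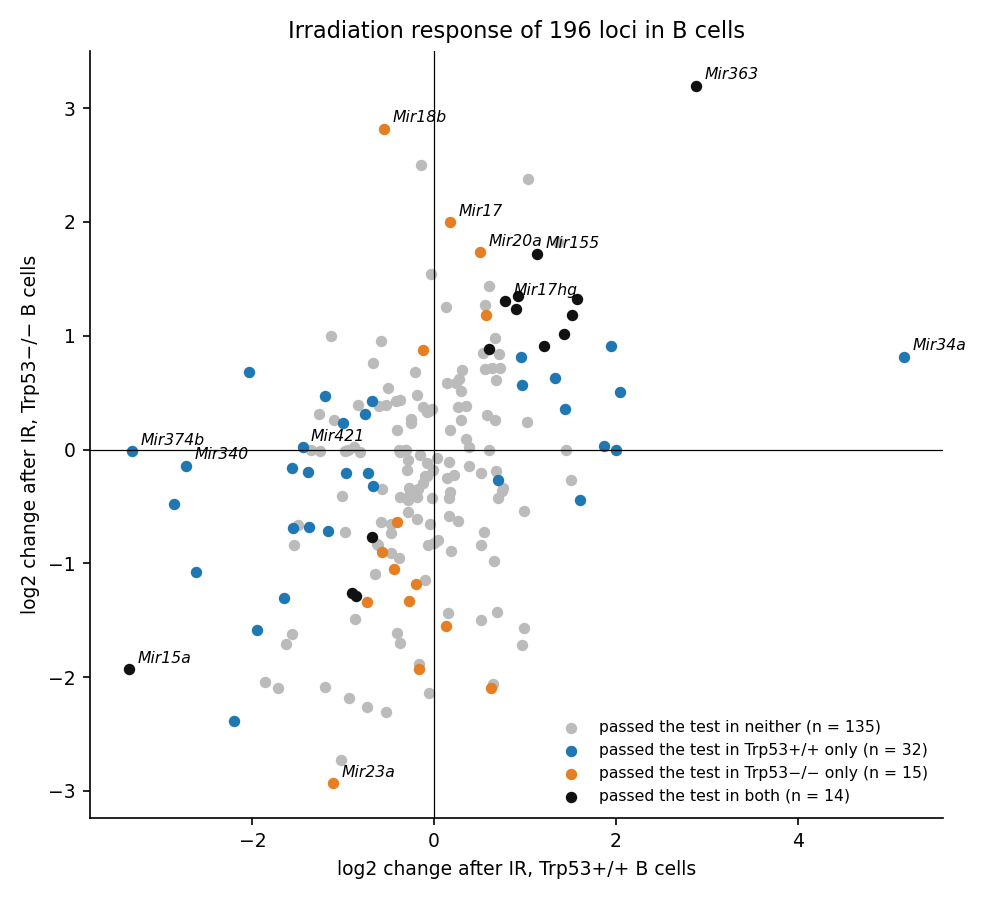
Fitted log2 change after IR of each of the 196 loci in Trp53+/+ B cells (horizontal axis) and Trp53-/- B cells (vertical axis), coloured by the genotype in which the locus passed the test: neither (135 loci), Trp53+/+ only (32), Trp53-/- only (15) or both (14). Mir34a lies alone at the far right, Mir374b, Mir340 and Mir421 lie to the left near 0 on the vertical axis, and Mir18b, Mir17 and Mir20a lie at the top near 0 on the horizontal axis.

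Mir155, the locus of a miRNA known for B cell activation, rose in both genotypes and further in Trp53-/- B cells. It lies at chr16:84714385-84714449 on the + strand, outside other genes. Trp53+/+ B cells went from 9.226, 9.872, 8.252 and 8.639 RPKM to 20.637, 21.41, 21.911 and 17.678 RPKM, with 79 to 119 reads before and 129 to 198 after IR. Trp53-/- B cells went from 9.916 and 9.853 RPKM to 35.51 and 31.906 RPKM, with 114 and 109 reads before and 393 and 373 after. Unstressed libraries of both genotypes overlapped, and irradiated Trp53-/- libraries lay above all irradiated Trp53+/+ ones. The log2 changes were 1.14 ± 0.08 and 1.72 ± 0.12 (limma adjusted p = 3.74e-07 and 1.37e-06), and their difference was -0.58 ± 0.15 (limma adjusted p = 0.0165).

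The Mir17 family clusters were higher in irradiated Trp53-/- B cells. There 5 of the 9 loci of the listed clusters passed upwards and none downwards, beside 13.1% and 11.2% of all genes. The median log2 change of the 9 loci was 1.19, against 0.0176 over all genes. Reads of Mir17, Mir18, Mir19a and Mir20a, which lie in the host transcript Mir17hg on chromosome 14, summed to 52 to 58 per library unstressed and 94 to 145 after IR, a depth-corrected ratio of 2.15 (1.71 to 2.72). Mir18 had 23 and 21 reads before and 40 and 65 after IR (log2 change 1.19 ± 0.19, limma adjusted p = 0.00036). Mir17 had 1 and 5 before and 7 and 16 after, and Mir20a 4 and 5 before and 13 and 20 after (log2 changes 2.00 and 1.73, limma adjusted p = 0.0365 and 0.0313). Mir17 and Mir20a share the seed AAAGUGC. All 3 loci had non-overlapping groups. The rise of the 4 summed loci was not confined to B cells. In Trp53-/- non-B cells they went from 67 to 117 reads, a ratio of 1.75 (1.28 to 2.39), though none of the 9 listed loci passed there. In Trp53+/+ non-B cells the ratio was 0.772 (0.577 to 1.03).

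In Trp53+/+ B cells the same 4 hairpin loci summed to 211 reads unstressed and 205 after IR in the shallower irradiated libraries. This was 4.27 to 6.57 reads per M before and 6.31 to 9.02 after, a depth-corrected ratio of 1.38 (1.13 to 1.68), while none of the 4 passed the test singly. The host row Mir17hg passed in both genotypes. It went from 20.054, 19.591, 19.562 and 21.702 RPKM to 27.825, 31.168, 43.966 and 39.879 RPKM in Trp53+/+ B cells (log2 change 0.78 ± 0.12, limma adjusted p = 0.000133). The Trp53-/- B cells went from 21.194 and 21.885 RPKM to 53.616 and 54.385 RPKM (1.31 ± 0.17, limma adjusted p = 6.49e-05). The genotype difference passed neither for Mir17hg nor for these 4 hairpin loci.

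Mir18b and Mir363 lie in the paralogous cluster on chromosome X, and both were higher in irradiated Trp53-/- B cells. Mir18b (chrX:50095508-50095590, - strand), whose miR-18b-5p shares the seed AAGGUGC with miR-18a, had 5, 5, 3 and 3 reads before and 3, 1, 3 and 1 after IR in Trp53+/+ B cells. The Trp53-/- B cells went from 3 and 2 reads to 17 and 23, a ratio of 7.93 (3.13 to 25.7) with a log2 change of 2.82 ± 0.44 (limma adjusted p = 0.00031). Its genotype difference of -3.37 ± 0.54 (limma adjusted p = 0.00129) was the most negative of the 10 loci whose genotype difference passed.

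Mir363 (chrX:50094870-50094944, - strand), whose miR-363-3p shares the seed AUUGCAC with miR-25, rose in both genotypes from very few reads. Trp53+/+ B cells had 0, 1, 0 and 0 reads before and 4, 1, 3 and 2 after IR, a ratio of 14.2 (2.02 to 617; limma adjusted p = 0.000559). Trp53-/- B cells had 0 and 1 before and 5 and 7 after, a ratio of 11.9 (1.76 to 508; limma adjusted p = 0.00411). With 1 unstressed read in each genotype, the size of either rise is loosely bounded. Unstressed B cells had means of 0.36 (Trp53+/+) and 0.76 RPKM (Trp53-/-), below the 1 RPKM of the rule, so the choice of loci favoured a rise of Mir363.

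The remaining cluster, in the gene of the replication helicase subunit Mcm7, held Mir106b, Mir93 and Mir25. Their summed reads in Trp53+/+ B cells were 3.01 to 5.23 per M unstressed and 2.75 to 5.55 per M after IR, a depth-corrected ratio of 1.03 (0.804 to 1.32). The ratio was 1.42 (1.06 to 1.9) in Trp53-/- B cells. In non-B cells it was 0.768 (0.587 to 1.0) in Trp53+/+ and 1.15 (0.817 to 1.63) in Trp53-/- cells. Mir106b fell in Trp53+/+ B cells from 8, 13, 10 and 14 reads to 2, 3, 6 and 5 (log2 change -1.01 ± 0.27, limma adjusted p = 0.00776). Without irradiated replicates 1 and 2 the change was -0.68 with adjusted p = 0.0566 by limma. Mcm7 itself did not pass, at 0.33. Mir93 and Mir25, which overlap exons of Mcm7, passed no test.

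**Figure D4:**
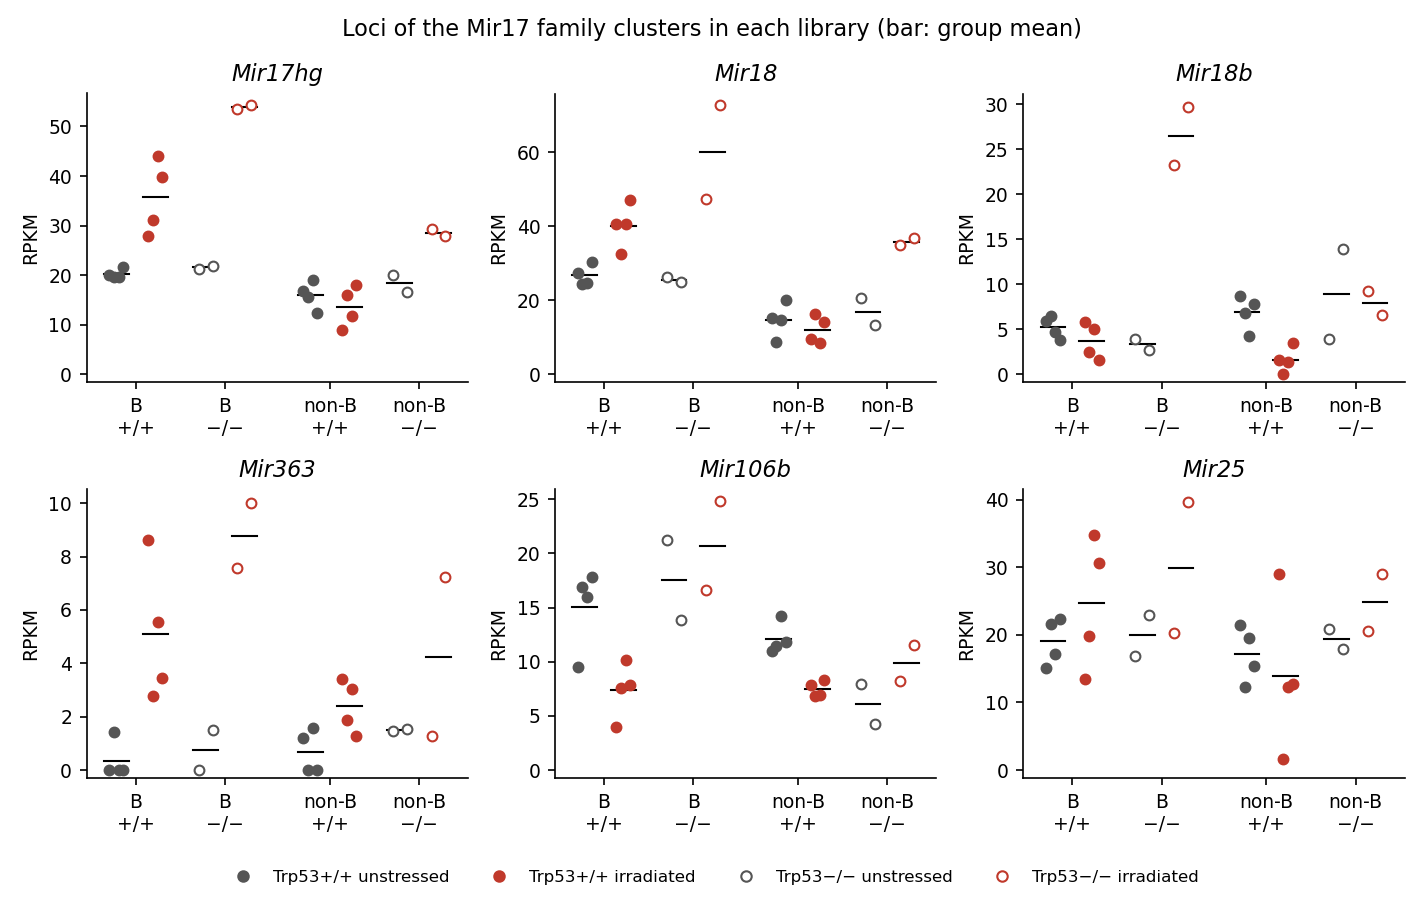
Level in RPKM (vertical axis) of Mir17hg, Mir18, Mir18b, Mir363, Mir106b and Mir25 in each library by cell type and genotype (filled circles Trp53+/+, open circles Trp53-/-, grey unstressed, red irradiated, bar at the group mean). Irradiated Trp53-/- B cells are the highest group for Mir17hg (53.616 and 54.385 RPKM), Mir18, Mir18b and Mir363.

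Among the loci that fell in Trp53-/- B cells, Mir23a, the first hairpin of a cluster with Mir27a and Mir24-2 on chromosome 8, had 6 and 7 reads before and 2 and 0 after IR (log2 change -2.93 ± 0.96, limma adjusted p = 0.0282). Mir3075 followed its host Zmiz1, a transcriptional coactivator gene, with log2 changes of -1.55 and -1.40. Mir22hg went from 99 and 88 reads to 31 and 69 (log2 change -0.90 ± 0.27, limma adjusted p = 0.0188). Mir139 (intron of Pde2a) passed on 1 and 1 reads against 0 and 0, too few to give a fold. Its Trp53+/+ B cell libraries held 0 reads before and 1 after IR in all, so the size of its genotype difference depends on the pseudocount. Mir3075 and Mir1249 missed the threshold when the 4 libraries with a high receptor share were left out of the shared fit (limma adjusted p = 0.0619 and 0.0511).

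The genotype difference in the IR response of B cells passed at 10 of the 196 loci, 5.1% beside 18.8% of all genes tested at adjusted p under 0.05 in limma, of which 8.14% were more positive and 10.6% more negative in Trp53+/+ cells. The change was more positive in Trp53+/+ cells at Mir34a, Mir701, Mir687 and Mir139, and more negative at Mir18b, Mir374b, Mir340, Mir421, Mir128-1 and Mir155. Mir687, in an intron of Rb1, the retinoblastoma gene, had 19, 8, 9 and 13 reads before and 10, 7, 22 and 13 after IR in Trp53+/+ B cells, and 16 and 14 before and 9 and 9 after in Trp53-/- B cells. Its genotype difference was 1.27 ± 0.40 (limma adjusted p = 0.0468), and Rb1 passed with a difference in the same direction. Mir128-1, in an intron of R3hdm1, had 9, 7, 7 and 7 reads before and 2, 3, 4 and 4 after IR in Trp53+/+ B cells, and 8 and 8 before and 12 and 10 after in Trp53-/- B cells. Its genotype difference was -1.12 ± 0.29 (limma adjusted p = 0.0188), while R3hdm1 did not pass. Without the libraries of high receptor share, 16 loci passed, 8 of them among the 10. Of the other 2, Mir374b missed the threshold, as given above, and Mir139 was not tested, because its 1 read in Trp53+/+ B cells was in irradiated replicate 1.

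In Trp53+/+ non-B cells IR changed 20 of the 200 loci, 9 upwards and 11 downwards, 10% beside 9.85% of all genes tested, 5.74% upwards and 4.11% downwards. The median change of the loci was -0.046, against -0.0303 over all genes. Mir34a (given above) rose most, and Mir22hg, Mir1938 and Mir155 also rose. The largest falls were those of Mir18b, Mir451a, Mir301 and Mir302c. Of these 20 loci, 8 had a mean under 5 reads. Without irradiated replicates 3 and 4, 16 loci passed and 9 of the 20 were among them. Mir34a, Mir22hg, Mir18b, Mir301, Mir302c, Mir1190 and Mir697 were among those that passed, and Mir451a, Mir669a-3, Mir23b, Mir320, Mir500, Mir680-1, Mir1938, Mir155, Mirlet7d, Mir106b and Mir24-2 lost theirs.

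Mir22hg, the host transcript of miR-22, went from 194, 155, 69 and 61 reads to 232, 231, 267 and 218 in Trp53+/+ non-B cells, or from 3.707 to 9.925 RPKM up to 12.003 to 18.41 RPKM. The log2 change was 1.31 ± 0.27 (limma adjusted p = 0.00829). B cells of the same genotype went from 100, 94, 81 and 100 reads to 45, 37, 51 and 36 in the shallower irradiated libraries. Their mean level went from 5.773 to 3.779 RPKM, a change that did not pass the test. The difference between cell types was 1.88 ± 0.34 (limma adjusted p = 0.000707). Trp53-/- non-B cells had 84 and 112 reads before and 117 and 68 after IR. The groups thus separated upwards in Trp53+/+ non-B cells and overlapped in Trp53-/- non-B cells, where the difference between genotypes did not pass.

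Mir451a, the locus of a miRNA known from red cell precursors, fell in Trp53+/+ non-B cells. It went from 50, 58, 6 and 16 reads to 7, 3, 2 and 6, a ratio of 0.162 (0.0929 to 0.266) with a log2 change of -2.04 ± 0.60 (limma adjusted p = 0.0362, and 0.154 without irradiated replicates 3 and 4). Unstressed replicate 3 lay below irradiated replicate 1, and unstressed replicates 1 and 2 held most of the reads. Erythroid markers moved with it: 7 of 10 tested passed downwards, beside 4.11% of all genes. The summed level of the markers went from 193.47 to 502.67 RPKM unstressed to 54.441 to 140.79 RPKM after IR. Of the 10, Car1 alone had a group mean under 1 RPKM after IR, at 0.4625 RPKM. In Trp53+/+ B cells Mir451a went from 8, 8, 3 and 13 reads to 1, 1, 4 and 2. There 6 of 10 erythroid markers passed downwards, beside 12.2% of all genes, and their summed level went from 95.579 to 179.76 RPKM to 72.37 to 77.665 RPKM. The part of red cell precursors in the Mir451a values was not tested.

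Among the other loci that passed in Trp53+/+ non-B cells, Mir18b had the largest fitted fall. It went from 8, 6, 3 and 6 reads to 1, 0, 1 and 3, a ratio of 0.254 (0.0754 to 0.683; limma adjusted p = 0.0246). Mir1190, among the 10 highest loci, went from 67, 58, 45 and 54 reads to 28, 24, 36 and 26 (log2 change -0.74 ± 0.13, limma adjusted p = 0.00283), while its host Ccdc88c did not pass at -0.10. Mir155 went from 6.124, 6.046, 6.156 and 5.221 RPKM to 8.389, 10.438, 7.564 and 12.716 RPKM (log2 change 0.66 ± 0.21, limma adjusted p = 0.0479). With the replicate pairs as a block, Mir155 and Mir320 missed the threshold (limma adjusted p = 0.0555 and 0.0544). Mir106b, Mir1190, Mir155, Mir1938, Mir301, Mir34a and Mir451a passed in both Trp53+/+ cell types, each in the same direction, which is 15.2% of the 46 B cell loci and 35% of the 20 non-B loci.

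In Trp53-/- non-B cells none of the 200 loci passed the limma test, beside 0.442% of all genes (0.193% upwards and 0.25% downwards), although 23 loci had an unadjusted p under 0.05. The genotype difference in non-B cells passed at 6 loci, 3% beside 7.35% of all genes (3.98% positive and 3.37% negative), and at 11 with the replicate pairs as a block. It was positive at Mir34a and negative at Mir106b, Mir3068, Mir30c-1, Mir697 and Mirlet7d. Without irradiated replicates 3 and 4, Mir106b missed the threshold (limma adjusted p = 0.0549), as did Mir34a. Mirlet7d, of the let-7 family, had 12, 12, 10 and 9 reads before and 4, 6, 5 and 7 after IR in Trp53+/+ non-B cells, and 7 and 10 before and 15 and 12 after in Trp53-/- non-B cells, a difference of -1.38 ± 0.28 (limma adjusted p = 0.0173). At each of the 5 loci with a negative difference the irradiated Trp53-/- mean was above the unstressed one, and at 4 of them, Mir30c-1 left out, the irradiated Trp53+/+ libraries all lay below the unstressed ones.

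Unstressed Trp53+/+ non-B and B cells differed at 30 of the 200 loci, 21 higher and 9 lower in non-B cells. That is 15% of the loci beside 24.6% of all genes tested, 17.2% higher and 7.38% lower. Of the 30, 16 had a mean under 5 reads. The choice of loci by their overall mean favoured a difference at some of them: 12 of the 21 higher loci had a mean of at most 1 RPKM over the B cell libraries, and 2 of the 9 lower loci, Mir212 and Mir681, had one over the non-B libraries. Those 12 were kept only through their non-B levels, so the counts are a description. The median difference of the loci, 0.077, was the same with 6 loci set to their bound. Loci inside Sfmbt2, Mir1962, Mir290a, Mir27a and Mir1941 were higher in non-B cells, and Mir421, Mir681, Mir704, Mir212, Mir128-1, Mir18 and Mir19a were lower. Markers of 5 other cell types were also higher in non-B cells (T cell 11 of 12 tested, myeloid 10 of 12, NK 5 of 5, megakaryocyte 5 of 5 and erythroid 5 of 10), so which cells of the mixture carried a locus was not tested.

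The repeat-rich cluster in an intron of Sfmbt2, a polycomb-related gene, held 10 of the 200 loci. Together they had 2 to 7 reads per unstressed Trp53+/+ B cell library and 24 to 40 per non-B library. Of the 10, 7 passed, all higher in non-B cells, beside 17.2% of all genes higher. These 7 share a host and were kept only through their non-B levels, so they are not separate results. Sfmbt2 itself was higher by 2.24 on the log2 scale. The hairpins are near-identical copies, so the split of reads among them is uncertain. Mir669j, with 5, 2, 10 and 4 non-B reads and none from B cells, was at least 6.52-fold higher (floor of 3 reads over the group).

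Outside that cluster, Mir290a (chr7:3218627-3218709, + strand), of a cluster known from early embryonic cells, had 0, 0, 1 and 0 B cell reads against 16, 10, 3 and 9 non-B reads. The ratio was 35.4 (5.98 to 1430; limma adjusted p = 0.000256). Mir1962, in an intron of the phosphatase gene Ptpre, had 3, 2, 3 and 0 against 30, 19, 17 and 20 reads, a log2 difference of 3.27 ± 0.72 (limma adjusted p = 0.0016; interval of the read ratio 4.86 to 23.9), and Ptpre was higher by 1.26 on the log2 scale. Mir27a had 2, 0, 1 and 2 against 11, 8, 8 and 6 reads (log2 difference 2.56 ± 0.60, limma adjusted p = 0.00269). The groups of these 3 loci did not overlap. Mir138-1 and Mir874, with no read in unstressed Trp53+/+ B cells, were at least 3.41-fold and 2.79-fold higher in non-B cells. Mir138-1, Mir874, Mir290a and all 7 passing loci of Sfmbt2 were among the 12 kept through non-B levels.

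Mir421 had the lowest adjusted p of the loci higher in B cells. It had 20, 22, 12 and 29 reads in unstressed B cells against 5, 6, 4 and 6 non-B reads, a ratio of 0.236 (0.139 to 0.384) with a log2 difference of -1.96 ± 0.23 (limma adjusted p = 3.99e-06). After IR the B cell counts of 4, 3, 6 and 8 came near the 6, 6, 5 and 4 of irradiated non-B cells. The cell type difference of its IR response was 1.66 ± 0.33 (limma adjusted p = 0.00135). Mir704, in an exon of the chaperone gene Pdia4, had 12, 17, 11 and 12 against 2, 4, 2 and 5 reads, with a log2 difference of -2.06 beside -0.83 for its host. Mir18 and Mir19a were lower in non-B cells by 0.89 and 0.84 on the log2 scale, while Mir17hg did not pass.

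The IR response differed between the Trp53+/+ cell types at 18 of the 200 loci, 9 in each direction, 9% beside 28% of all genes tested at adjusted p under 0.05 in limma (12.6% more positive and 15.4% more negative in non-B cells). The change was more positive in non-B cells at Mir15a, Mir16-1, Mir3058, Mir340, Mir421, Mir22hg and Mir1941, and more negative at Mir150, Mir17hg, Mir1949, Mir101b, Mir302b and Mir532, among others. Mir150 had 21, 15, 18 and 20 reads before and 10, 9, 14 and 18 after IR in non-B cells and did not pass there, and the difference from its rise in B cells was -1.31 ± 0.24 (limma adjusted p = 0.000903). Mir1941, counted on a gene model of 2618 bases antisense to Krt80, went from 115, 100, 83 and 91 reads to 31, 18, 15 and 21 in B cells. The non-B libraries had 527, 481, 205 and 350 before and 477, 438, 463 and 405 after IR. Its cell type difference was 1.86 ± 0.31 (limma adjusted p = 0.000361). Without the libraries of high receptor share, 27 loci passed, 15 of the 18 among them, and the call of Mir16-1 was lost.

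Grouped by known role, 13 loci of a p53-linked list of 26 were expressed. In Trp53+/+ B cells 2 of them passed upwards (Mir34a and Mir17hg) and 4 downwards (Mir15a, Mir16-1, Mir194-1 and Mirlet7b), beside 12.5% and 12.2% of all genes. Mir194-1 and Mirlet7b lost their calls without the irradiated libraries of high receptor share. The median log2 change over the 13 was -0.38, against 0.0111 over all genes. In Trp53-/- B cells Mir17hg passed upwards and Mir15a downwards, beside 13.1% and 11.2% of all genes. The median there was lower still, at -0.69, or -0.55 with 1 locus set to its bound and 2 without a fold left out, against 0.0176 over all genes. In Trp53+/+ non-B cells Mir34a alone passed, beside 5.74% of all genes upwards and 4.11% downwards, and the median was -0.25. Of a lymphocyte and haematopoietic list of 29, 13 loci were expressed, of which Mir155 and Mir150 rose in Trp53+/+ B cells, Mir155 and Mir24-2 rose in Trp53+/+ non-B cells, and in Trp53-/- B cells Mir155 rose and Mir23a fell. The median log2 changes of the 13 were 0.18, 0.13 and 0.17 in these 3 comparisons, and the shares of all genes are those just given for each. The 8 loci of the let-7 seed GAGGUAG had a median of -0.71 in Trp53+/+ B cells, where Mirlet7b and Mir98 (named after its values were seen) passed downwards and none upwards, beside 12.2% of all genes downwards. The medians of the same 8 loci were 0.29 in Trp53-/- B cells, 0.42 in Trp53-/- non-B cells and -0.01 in Trp53+/+ non-B cells, where 1 passed downwards, beside 4.11% of all genes.

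Of 25 genes of the microRNA pathway tested in Trp53+/+ B cells, Ago4, an Argonaute, alone passed after IR, with a log2 change of -1.53, where 24.7% of all genes passed. In Trp53-/- B cells Xpo5 (Exportin 5), its partner Ran and Hnrnpa1, an RNA-binding protein of some hairpins, rose by 0.62, 0.66 and 0.64, while Ago4 and Tnrc6b, a silencing factor bound by Argonautes, fell by 2.10 and 0.74 on the log2 scale. These 5 of 25 stand beside 24.3% of all genes. Hnrnpa1 was low, with means of 2.17 RPKM before and 3.67 RPKM after IR. Its means in Trp53+/+ B cells were much alike, at 2.31 and 3.70 RPKM, though it did not pass there. In non-B cells none of 26 passed in either genotype, beside 9.85% of all genes in Trp53+/+ and 0.442% in Trp53-/- cells. The genotype difference passed at 6 of the 25 pathway genes in B cells, beside 18.8% of all genes, and at 3 of 26 in non-B cells, beside 7.35%.

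No host gene of a passing locus passed in the direction opposite to it. Among Trp53+/+ B cells 25 passing loci had a tested host on the same strand, and 9 of these hosts passed in the direction of the locus and 16 did not pass. The hosts of 12 of 18 passing loci passed in the same direction in Trp53-/- B cells, in Trp53+/+ non-B cells those of 2 of 9, and between the unstressed cell types those of 14 of 19. Those 19 include the passing loci of Sfmbt2, which share a host and were kept only through their non-B levels. Of all genes tested, 24.7%, 24.3%, 9.85% and 24.6% passed in these comparisons, in that order and in either direction. Across loci, which are not independent replicates because several share a host and all share libraries, the log2 changes of locus and host correlated with Pearson's r = 0.609 over 105 loci in Trp53-/- B cells and 0.848 over the 33 with a mean of at least 10 reads. Between the unstressed cell types r was 0.769 over 117 loci and 0.852 over 33. After IR it was 0.53 over 105 loci and 0.669 over 33 in Trp53+/+ B cells, 0.455 over 117 and 0.533 over 33 in Trp53+/+ non-B cells, and 0.427 over 117 and 0.652 over 33 in Trp53-/- non-B cells. Reads of an intronic hairpin and of the unspliced host transcript cannot be told apart here.

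**Figure D5:**
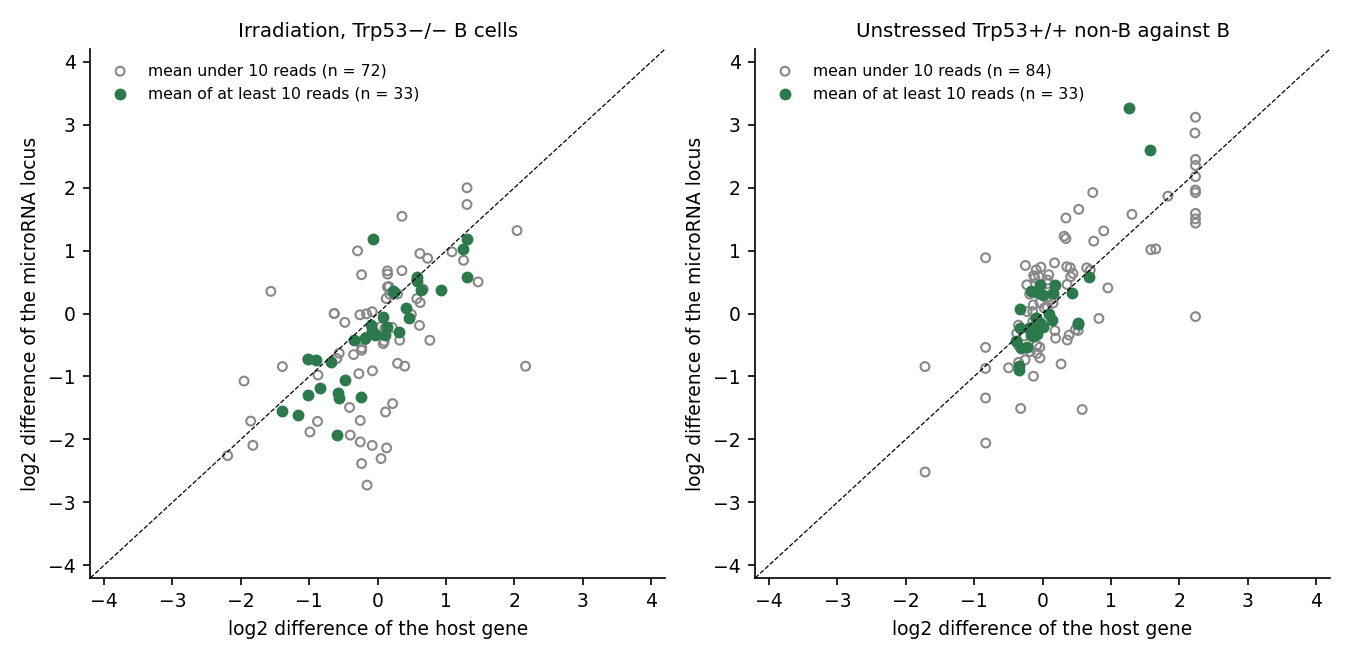
Log2 difference of each microRNA locus (vertical axis) against that of its host gene (horizontal axis) after IR in Trp53-/- B cells (left, 105 loci) and between unstressed Trp53+/+ non-B and B cells (right, 117 loci), with a dashed line where both are equal. Filled points are the 33 loci with a mean of at least 10 reads (r = 0.848 on the left and 0.852 on the right), and the column of open points at 2.24 on the right is the loci inside Sfmbt2.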

How the data were processed

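Total RNA was depleted of ribosomal RNA and made into TruSeq v2 libraries. Per the study's methods and notes, the authors masked bases with quality under 20, aligned to mm9 with TopHat (TopHat2 2.0.8 in the deposited notes, an earlier release in the study's methods), kept 1 read of each duplicate set, counted with featureCounts 1.4.5 on UCSC genes, and deposited RPKM values with the reads on exons as library size. Keeping 1 read per duplicate set compresses high levels, and no gene exceeded 307.4 RPKM. The authors tested counts with DESeq2. The deposited values are RPKM, so limma 3.58.1 (R 4.3.3) with a mean-variance trend was run on log2(RPKM + 0.5), and a change is on that scale, which understates changes of low loci. Fits held the 12 libraries of a cell type, or the 16 Trp53+/+ libraries for cell type comparisons. Genes above 1 RPKM in at least 1 Trp53+/+ library of the fit were tested, with Benjamini-Hochberg adjustment over all of them, and called at adjusted p under 0.05 and a log2 change above 0.58 in size (differences of responses at adjusted p alone).

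Reads were recovered from the RPKM steps, with the gene length fitted between 40 and 3000 bases. Library depth was fitted from the same steps, and the smallest of the depths that fitted about equally well was taken. Ratios use summed reads over summed fitted depth. Hairpins and mature sequences from RefSeq were located in the mm9 genome. Named were the 10 highest loci, in each comparison up to 6 called loci per direction by size of change, loci of the 3 lists that passed any test and up to 3 per list that did not, 3 loci on either side of the rule, and their hosts. Members, lists and rules were chosen with earlier results of these data known. Mir451a was listed as Mir451 and so was not counted in the lymphocyte list.

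Same-numbered unstressed and irradiated Trp53+/+ non-B libraries deviated together (correlations 0.323, 0.156, 0.22 and 0.323), so the block is given beside those results where it matters. Every column of per-sample values was used. The fits were run on simulated data with large changes placed only in irradiated Trp53+/+ B cells. That simulation placed no change at the loci of lowest level or in the Trp53-/- groups, so it does not check calls there. Python 3.11.15, pandas 2.3.3, numpy 2.4.6, scipy 1.17.1 and matplotlib 3.10.9 were used.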

Additional observations from a re-analysis of the deposited data

Results flagged for a closer look

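Within the groups of 4 libraries, 159 sets of values with a mean of at least 5 reads were examined for a library apart from the other 3 (Dixon's test at 95%), and 8 had one, about the 1 in 20 that chance gives. Mir142 stood high in unstressed Trp53+/+ B cell replicate 4 (148.996 RPKM, the others 123.207 to 126.681) and in irradiated replicate 2 (158.934 RPKM, the others 141.712 to 143.119). In unstressed Trp53+/+ B cells, Mir1894 was low in replicate 3 (67.921 RPKM, the others 99.027 to 101.445), Mir23a was low in replicate 3 (5.24 RPKM, the others 11.383 to 12.5) and Mir15a was high in replicate 4 (28.523 RPKM, the others 12.731 to 14.035). In irradiated Trp53+/+ B cells, Mir466i was high in replicate 4 (47.934 RPKM, the others 30.745 to 30.965) and Mir687 was high in replicate 3 (34.302 RPKM, the others 16.37 to 18.826). In unstressed Trp53+/+ non-B cells, Mir155 was low in replicate 4 (5.221 RPKM, the others 6.046 to 6.156).

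The IR response differed between genotypes or cell types by a test of the difference itself (limma, adjusted p under 0.05). In B cells, the log2 change in Trp53+/+ less that in Trp53-/- was 4.354 for Mir34a, 2.726 for Mir139, 1.269 for Mir687 and 1.091 for Mir701. The sizes for Mir34a and Mir139 depend on the pseudocount, since some of their groups had no read. That for Mir701 rests on 6 and 8 summed reads in Trp53-/- B cells. Mir139 held 0 to 2 reads per group, and its difference was 5.275 with a pseudocount of 0.1 and 0.5486 with 5. It was -3.367 for Mir18b, -3.31 for Mir374b, -2.588 for Mir340, -1.469 for Mir421, -1.115 for Mir128-1 and -0.5811 for Mir155. In non-B cells it was 3.978 for Mir34a, -2.168 for Mir30c-1, -1.431 for Mir697, -1.383 for Mirlet7d, -1.349 for Mir106b and -1.004 for Mir3068. The log2 change in Trp53+/+ non-B cells less that in B cells was 3.046 for Mir3058, 2.992 for Mir15a, 2.349 for Mir340, 1.88 for Mir22hg, 1.865 for Mir1941 and 1.664 for Mir421. It was -3.219 for Mir101b, -2.468 for Mir532, -1.564 for Mir302b, -1.434 for Mir1949, -1.315 for Mir150 and -1.034 for Mir17hg.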

How the results depend on the processing

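Among 122 results for single loci, 51 passed under every alternative tried and none changed direction. The count of loci that passed moved by over 1.5 times in these cases. Without the filter on low levels, which tests more genes, it was 5 rather than 20 in Trp53+/+ non-B cells, 17 rather than 29 in Trp53-/- B cells, 4 rather than 10 for the genotype difference in B cells and 3 rather than 6 for that in non-B cells. A pseudocount of 5 gave 10 in Trp53+/+ non-B cells. With the receptor share as a covariate, 7 passed in Trp53+/+ non-B cells and 2 for the genotype difference in non-B cells. Without the libraries of high receptor share, 16 passed for the genotype difference in B cells. These last 2 alternatives were chosen after seeing the data. The cause of these shifts was not tested. In Trp53+/+ B cells the count stayed between 32 (pseudocount 5) and 56 (replicate block).

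With the replicate numbers as a block, 23 loci passed in Trp53+/+ non-B cells and 11 rather than 6 for the genotype difference there. Mir155 and Mir320 in Trp53+/+ non-B cells and Mir532 in the cell type difference (limma adjusted p = 0.0511) lost their calls, and no other locus named did. In B cells the same-numbered libraries did not deviate together in every pair (correlations 0.0146 to 0.0856 in Trp53+/+ and 0.0438 in Trp53-/-), 6 of 8 Trp53+/+ libraries correlated best with their own number, and the block gave 56 and 35 loci. In Trp53-/- non-B cells the correlation was -0.255, and crossing the pairs, tried after seeing the data, gave 2 loci rather than 0.

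Leaving out each library in turn gave 46 to 52 loci in Trp53+/+ B cells, 7 to 21 in Trp53+/+ non-B cells, 15 to 33 in Trp53-/- B cells, 0 to 0 in Trp53-/- non-B cells, 4 to 17 and 1 to 10 for the genotype differences in B and non-B cells, 25 to 35 between unstressed cell types and 16 to 24 for the cell type difference. In Trp53+/+ non-B cells the count was 12, 9 and 7 without unstressed replicates 1, 2 and 4, and 13, 13 and 9 without irradiated replicates 1, 2 and 3. In Trp53-/- B cells it was 15 and 19 without unstressed replicates 1 and 2, and 17 without irradiated replicate 1. With 1 library left in such a group, it is assumed to vary like the others. The genotype difference in B cells gave 4, 5 and 6 without Trp53-/- unstressed replicates 1 and 2 and irradiated replicate 1, and 17 without irradiated Trp53+/+ replicate 3. That in non-B cells gave 3 and 1 without Trp53-/- unstressed replicate 2 and irradiated replicate 1, and 10 without irradiated Trp53+/+ replicate 4. At a median mean of 4.62 reads per library, many loci could pass only with large changes.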
